A study of Mus musculus with 6 samples.

Results

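H19, Ins2, Tspan32 and Slc22a18 are genes of the imprinted region of distal mouse chromosome 7. They are 4 of the 99 genes analysed here, and they were taken by gene name, because those with counts were lower in treated than in untreated cells. The fall in this contrast therefore chose them, and their differences between the groups are given as descriptions without a test. Counts were found for 3 of the 4 members; Ins2 had none. RNA was measured in B16F10, a mouse melanoma cell line labelled WT, in 3 untreated libraries and in 3 libraries made after 48 h with MTyr-OANPs. MTyr-OANPs is the submitters' code, which the labels do not expand. The same growth medium and serum are given for both groups, and no vehicle group or batch is named in the labels, so an effect of handling cannot be told apart from that of MTyr-OANPs. The replicates are called biological, but how the cultures were separated is not said, so standard errors measure the spread between these libraries.

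Genomic imprinting is the expression of a gene from the copy inherited from a single parent. On distal chromosome 7 it acts in a pair of neighbouring domains. In the first, a control region lies upstream of H19, methylated on the paternal copy and bound by the insulator protein CTCF on the maternal copy. It keeps H19 maternal and Igf2 paternal in tissues of the embryo, and Ins2 paternal in the yolk sac. In the second, the promoter of the antisense RNA Kcnq1ot1 controls a group of maternally expressed genes that includes Cdkn1c, Phlda2 and Slc22a18. Imprinting of Tspan32, which lies between H19 and Kcnq1, is known mainly from the placenta. The libraries hold no information on parental copies, so levels here are sums over all copies of a gene.

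Counts over the 99 genes ran from 334160 to 421423 per library, and relative depths ran from 0.850 to 1.07. For 16 genes every library was at 0. None of the 11 melanocyte lineage markers listed for this work was among the 99 genes, so the labelled cell type could not be checked against its markers. Levels are given in FPKM, fragments per kilobase corrected for library depth, as computed by the authors. In bulk RNA, fewer cells with a transcript and less of it per cell cannot be told apart.

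The 4 members lie within 923.8 kb, a stretch in which GENCODE M21 places 38 genes, 12 of them protein-coding. Of these 38 genes, 5 were analysed here, the members and Th. H19 is at chr7:142575529-142578143 on the minus strand (GRCm38). Ins2 starts 100.5 kb beyond the end of H19, at chr7:142678656-142699510 on the minus strand. Tspan32 follows 305.5 kb further on, at chr7:143005046-143019644 on the plus strand. Slc22a18 lies another 454.1 kb on, at chr7:143473736-143499334 on the plus strand, beyond Kcnq1 and Cdkn1c. Igf2, Cd81, Kcnq1, Kcnq1ot1, Cdkn1c and Phlda2 were not analysed here.

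H19, a spliced and polyadenylated long noncoding RNA that restrains growth of the embryo and is shut down in most tissues after birth, had the largest difference of the members. Its level was 1.99, 2.64 and 2.27 FPKM in untreated libraries 1, 2 and 3, and 0.160, 0.104 and 0.136 FPKM in treated libraries 1, 2 and 3. The groups did not overlap, and the lowest untreated level was 12.5 times the highest treated one. The counts behind these levels were 409, 501 and 446 untreated and 28, 22 and 31 treated. Treated H19 thus stood at 5.78% of the untreated mean, with a log2 difference of -4.12 (SE 0.22, n = 3 per group). H19 was still detected in every treated library. Exact 95% Poisson intervals of the treated counts, which cover counting error only, came to 0.106 to 0.231, 0.0651 to 0.157 and 0.0921 to 0.192 on the FPKM scale. These intervals overlap, and a difference in H19 between treated libraries was not tested. Of 41 values from 1 to 20 in the table, 30 were multiples of 4, so a count may not be an independent event and the intervals may be too narrow.

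The H19 gene has 7 annotated transcripts and 2460 bases of merged exon. An exon of H19 contains Mir675, and the microRNAs cut from it are shown because their precursor is the transcript measured here. Capitals mark the seed, bases 2 to 8, and sequences are from RefSeq (GRCm38.p6, minus strand).
mmu-miR-675-5p: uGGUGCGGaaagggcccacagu
mmu-miR-675-3p: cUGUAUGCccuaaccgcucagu
The former lies at chr7:142577112-142577133 and the latter at chr7:142577078-142577099. Their seeds differ from each other, and neither is shared with another mature microRNA in that table. Small RNAs were not measured, so the values of H19 say nothing of the level of either microRNA. The small RNA genes Gm27483 and Gm27786 lie on the opposite strand over 71 and 70 bases of H19 exon. Whether the counting used strand is not stated in the labels or headers.

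Ins2, which encodes insulin and is transcribed in pancreatic beta cells and, from the paternal copy, in the yolk sac, was listed at a count of 0 in all 6 libraries. With 1312 bases of merged exon, a count of 0 allows up to 3 counts, which corresponds to 0.0268 to 0.0339 FPKM depending on the library. If 1 event gave 4 counts, this limit would be 4 times as high. Expression below that level was not detectable at this depth, and no difference between the groups can be given. Of 7 beta cell markers listed, Ins2 was the only gene analysed here. Its neighbour Th, tyrosine hydroxylase of catecholamine synthesis, was near the same limit. Counts of Th were 0, 4 and 0 in untreated libraries 1, 2 and 3, and 4 in each treated library. In edgeR's quasi-likelihood test with no FPKM minimum Th did not pass (adjusted p = 0.59). At these counts Th gives no direction for the stretch between Ins2 and Tspan32.

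Tspan32, a tetraspanin of the cell surface known from mouse blood cells and platelets, was lower in treated cells by nearly as much as H19. Its level was 1.15, 1.5 and 0.983 FPKM in untreated libraries 1, 2 and 3, and 0.156, 0.0601 and 0.0810 FPKM in treated libraries 1, 2 and 3. The groups did not overlap, with a factor of 6.30 between the lowest untreated and the highest treated level. Counts were 600, 726 and 491 untreated and 67, 34 and 45 treated. The treated mean was 8.18% of the untreated mean, with a log2 difference of -3.71 (SE 0.44, n = 3 per group). Treated library 1 held more Tspan32 than the others of its group. The 95% Poisson interval of its count was 0.121 to 0.198 on the FPKM scale, and lay above those of treated library 2, 0.0416 to 0.0840, and treated library 3, 0.0591 to 0.108. Small counts were often multiples of 4, so these intervals too may be too narrow. Without treated library 1 the log2 difference was -4.10.

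The FPKM of Tspan32 is set over 6234 bases of exon merged from its 12 annotated transcripts, of which 8 are protein-coding. The antisense gene Tspan32os overlaps 271 of these bases on the opposite strand, so its reads may not have been told apart. Because Tspan32 is known from blood cells, leukocyte markers are given beside it. Of 15 such markers, 4 were analysed here, and their summed FPKM ran from 0.520 to 0.849 in untreated and from 2.65 to 3.23 in treated libraries. Itgb2, a beta chain of leukocyte integrins, had 0.404 ± 0.140 FPKM untreated and rose to 1.62 ± 0.115 (SD, n = 3 per group, adjusted p = 1.7e-08 in edgeR). Its mean over all libraries, 1.01 FPKM, reached the minimum of 1 for this test only through its treated level. Without an FPKM minimum Itgb2 passed too (edgeR adjusted p = 2.5e-15). Slfn4 was listed at 0 in all libraries. Clec10a had counts of 8, 0 and 5 in untreated libraries 1, 2 and 3, and 0 in all treated ones. Defining markers such as Ptprc and Cd3e were not analysed here. The sum came mainly from Itgb2 and Lck, and the part of such markers in the level of Tspan32 was not tested.

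Slc22a18, a transporter-like membrane protein of the organic cation transporter family, was the most abundant member and had the smallest difference. Its level was 10.8, 12.2 and 9.74 FPKM in untreated libraries 1, 2 and 3, and 4.09, 5.09 and 5.35 FPKM in treated libraries 1, 2 and 3. The groups did not overlap, although the lowest untreated level was only 1.82 times the highest treated one. Counts were 1528, 1597 and 1316 untreated and 469, 736 and 777 treated. Treated Slc22a18 was at 44.4% of the untreated mean, with a log2 difference of -1.17 (SE 0.15, n = 3 per group). Its exons, 1699 bases merged from 5 transcripts, overlap no other annotated gene.

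**Figure D1:**
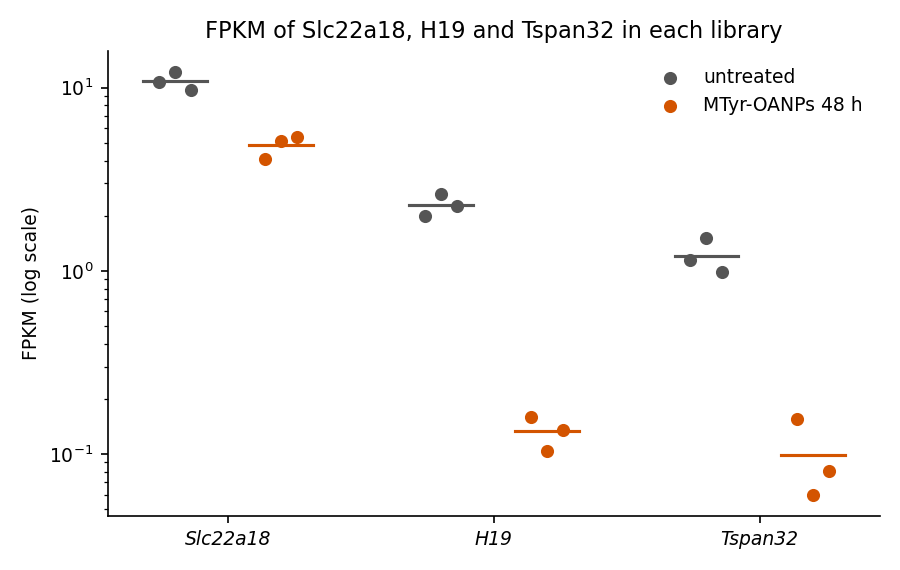
FPKM on a log axis of Slc22a18, H19 and Tspan32 in each of 3 untreated and 3 MTyr-OANPs libraries, with 1 point per library and a line at the group mean. Within each gene the treated points lie below the untreated ones, by a wide gap for H19 and Tspan32 and a narrow one for Slc22a18; Ins2, listed at 0, is not drawn.

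In untreated cells the order of levels per length was Slc22a18, H19, Tspan32, and it was the same in each library. Neighbours in this order did not overlap, with untreated means of 10.9 ± 1.23, 2.30 ± 0.323 and 1.21 ± 0.265 FPKM (SD, n = 3 each). In treated cells Slc22a18 was again highest, at 4.84 ± 0.667 FPKM (SD, n = 3). H19 was above Tspan32 in each treated library too, with means of 0.133 ± 0.0279 and 0.0991 ± 0.0505 FPKM (SD, n = 3 each). The ranges of H19 and Tspan32 over the treated libraries overlapped. In treated library 1 their FPKM values were nearly equal, with a ratio of H19 to Tspan32 of 1.02. The order of H19 and Tspan32 depends on the exon lengths used, 2460 and 6234 bases. In counts Tspan32 was above H19 in every library, with 67 against 28 in treated library 1. Of the summed FPKM of the 3 expressed members, Slc22a18 made up 75.7% ± 1.52 in untreated and 95.3% ± 2.15 in treated libraries (SD, n = 3 each).

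The members differed in the size of their difference between the groups. The ratio of H19 to Slc22a18 was 0.185, 0.216 and 0.233 in untreated libraries and 0.0390, 0.0204 and 0.0253 in treated libraries 1, 2 and 3. The ratio of Tspan32 to Slc22a18 was 0.107, 0.123 and 0.101 untreated and 0.0382, 0.0118 and 0.0151 treated. Both ratios were lower in every treated library than in any untreated one. A ratio within a library does not depend on how libraries are scaled. The ratio of H19 to Tspan32 was 1.73, 1.76 and 2.31 untreated and 1.02, 1.73 and 1.67 treated. The lowest untreated and the highest treated value of this ratio nearly met, and the log2 differences of H19 and Tspan32 were 0.42 apart, with an SE of 0.28.

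Replicates spread more for the members than for the median gene, as they did for some other genes. Among untreated libraries the coefficient of variation was 14.1% for H19, 21.8% for Tspan32 and 11.3% for Slc22a18, against a median of 4.56% over the 53 genes whose mean FPKM reached 1. Among treated libraries it was 21%, 50.9% and 13.8%, against a median of 4.26%. These medians come mostly from genes with far more counts, while mean treated counts were 27 for H19 and 48.7 for Tspan32. Some genes varied as much among untreated libraries, with 34.7% for Itgb2, 29.8% for Lck and 22.8% for Septin1. Their mean untreated counts, 98.3, 69 and 123, were below those of H19, 452, Tspan32, 606, and Slc22a18, 1480. Xpo6, with a mean untreated count of 6781, varied by 11.4% among untreated libraries, about as much as Slc22a18. Scml2, with a mean untreated count of 444, near that of H19, varied by only 3.67% among untreated libraries. Among treated libraries Scml2 varied by 42.1%, at a mean treated count of 181. The part of low counts in the spread of the members was not tested. Untreated library 2 held the highest level of each of the 3 members in its group. Among treated libraries, library 1 was highest for H19 and Tspan32 and lowest for Slc22a18.

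The background of this contrast was wide. Of those 53 genes, 83% passed edgeR's quasi-likelihood test at an adjusted p of 0.05, and 45.3% passed as lower in treated cells. H19 and Slc22a18 were among the 53 genes, H19 only through its untreated level (likewise H19 and Tspan32 for the mean count of 50 used next), while Tspan32 and Ins2 were below the minimum. Groups without overlap and lower after treatment were found in 28 of the 61 genes whose mean count reached 50 (45.9%), and the 3 expressed members are among the 28. A mean at least 10-fold lower was found in 3 of the 61 (4.92%), namely H19, Tspan32 and Gmpr. A log2 difference of -1 or lower was found in 23% of the 61. Ordered from the lowest difference, H19 was at rank 1, Tspan32 at rank 2 and Slc22a18 at rank 13. The members were chosen on this contrast, so nothing is read from these shares and ranks. The median log2 difference of the 53 genes was -0.03. TMM scaling of the counts raised this median by 0.14 against scaling by implied depth, and the 3 members were lower in treated cells under each scaling tried.

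**Figure D2:**
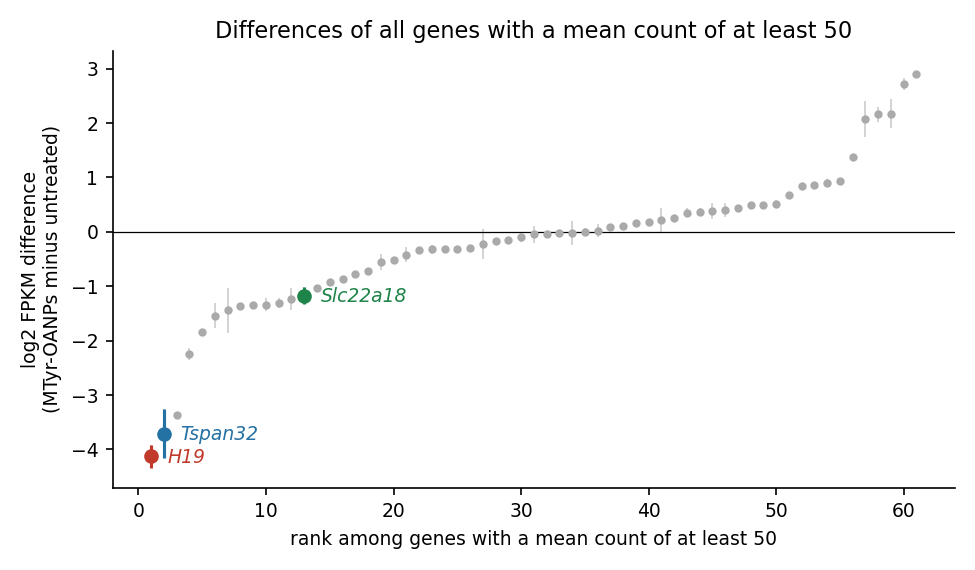
Difference of mean log2 FPKM between 3 MTyr-OANPs and 3 untreated libraries for the 61 genes whose mean count reached 50, in rank order, with standard errors as bars. H19 and Tspan32 lie at the lower end at -4.12 and -3.71, and Slc22a18 lies at rank 13 at -1.17.

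Genes on chromosome 7 outside the imprinted stretch were few. Besides the members and Th, 3 genes of chromosome 7 were analysed. Xpo6, a nuclear exporter of actin, was at 5.00 ± 0.568 FPKM untreated and 5.06 ± 0.360 treated (SD, n = 3 each) and did not pass edgeR's test (log2 fold change 0.02, adjusted p = 0.84). Septin1, a cytoskeletal GTPase, was at 0.538 ± 0.123 and 0.460 ± 0.113 FPKM (SD, n = 3 each) and did not pass when edgeR was fitted without an FPKM minimum (log2 fold change -0.24, adjusted p = 0.57). Scnn1g, a subunit of the epithelial sodium channel, was listed at 0 in all libraries. Neither expressed gene outside the stretch passed, and a miss does not show that their levels were equal. No gene of a list of 47 imprinted genes from other regions was analysed here.

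**Figure D3:**
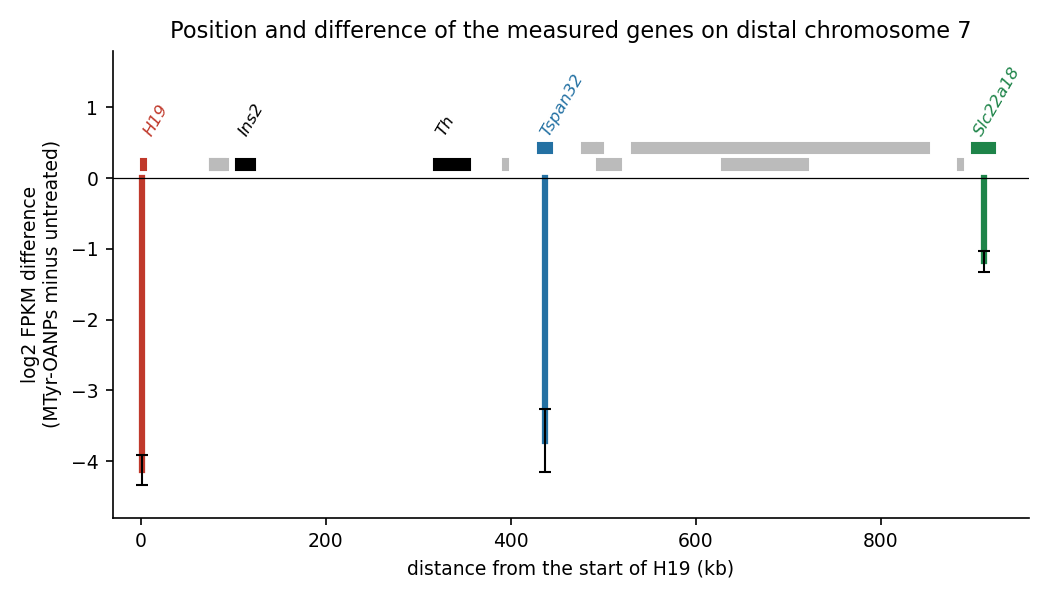
Genes between H19 and Slc22a18 by distance from the start of H19 (kb), boxes above the line in an upper row for the plus and a lower row for the minus strand, with the shortest boxes widened to be visible. Coloured and black boxes are the 5 genes analysed here and grey boxes are the other protein-coding genes and Kcnq1ot1; bars below give the log2 FPKM difference with its standard error, -4.12, -3.71 and -1.17, with no bar for Ins2 and Th.

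Promoters in the RefSeq table (GRCm38.p6, 250 bases before to 50 after the RefSeq start) matched 2 of the 4 members, Tspan32 and Slc22a18. They are shown because both genes were lower in treated cells, by different amounts. Both are on the plus strand, Tspan32 at chr7:143004796-143005095 and Slc22a18 at chr7:143473539-143473838. The RefSeq start of Tspan32 is that given above, and that of Slc22a18, from which its positions are counted, lies 53 bases downstream. Capitals mark TCATGTG, the M-box bound by the pigment cell factor Mitf, and GGAAG, the core of ETS factor sites, each on either strand.
Tspan32: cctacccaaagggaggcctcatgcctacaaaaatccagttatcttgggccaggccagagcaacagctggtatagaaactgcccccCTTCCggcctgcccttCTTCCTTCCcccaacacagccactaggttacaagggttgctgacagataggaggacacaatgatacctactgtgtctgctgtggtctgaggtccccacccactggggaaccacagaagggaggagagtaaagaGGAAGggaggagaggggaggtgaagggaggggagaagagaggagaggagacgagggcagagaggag
Slc22a18: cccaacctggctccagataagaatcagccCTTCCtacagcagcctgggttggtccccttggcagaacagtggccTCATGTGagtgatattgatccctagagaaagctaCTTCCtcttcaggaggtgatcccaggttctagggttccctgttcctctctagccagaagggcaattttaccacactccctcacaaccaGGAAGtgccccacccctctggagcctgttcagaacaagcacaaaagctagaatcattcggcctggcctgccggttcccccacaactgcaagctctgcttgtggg
Each window holds 2 CpG dinucleotides, against a median of 7 over 32817 promoters, of which 76.7% hold more. G and C make up 56.7% of the Tspan32 window and 54.7% of that of Slc22a18, against a median of 52.7%. GGAAG or its complement occurs 4 times in the former and 3 times in the latter, and in 71.4% of all promoters. TCATGTG occurs 1 time, at position -176 of Slc22a18, and on either strand in 3.78% of all promoters. Neither window holds the E-box CACGTG, found in 7.15% of promoters, the GC box GGGCGG, found in 35.6%, or the TATA box TATAAA, found in 13.6%. CCCTC, the core of CTCF sites, occurs 3 times in the Tspan32 window and 2 times in that of Slc22a18, and in 66% of promoters. The motifs were searched on both strands and chosen with the sequences in view, and matches are descriptions of the letters only.

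The genes most like each member were found by the Euclidean distance between profiles of log2(FPKM + 0.01), centred on the untreated mean, over 6 libraries and 61 genes. H19 and Tspan32 were each other's nearest gene, at a distance of 1.02. For both, Gmpr came next, at 1.25 from H19 and 1.11 from Tspan32, followed by Arvcf at 3.20 and 2.61. Gmpr, guanosine monophosphate reductase of purine salvage, had 60.0 ± 3.36 FPKM in untreated and 5.80 ± 0.284 FPKM in treated libraries, and so fell 10.3-fold (SD, n = 3 per group; adjusted p = 1.1e-24 in edgeR). The p120-family catenin gene Arvcf fell 4.71-fold (adjusted p = 4.0e-15 in edgeR). Slc22a18 was far from both other members, at 4.99 from H19 and 4.30 from Tspan32. Its nearest genes were Narf, whose protein binds prelamin A, at 0.374, Hddc2, a nucleotide phosphatase, at 0.391, and Cdc45, part of the replicative helicase, at 0.431. Narf fell 2.52-fold, Hddc2 2.48-fold and Cdc45 2.05-fold (edgeR adjusted p = 1.8e-11, 1.0e-12 and 1.7e-14). None of these genes lies on chromosome 7, and the distances, which follow mainly the size of the group difference, are descriptions without a test.

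**Figure D4:**
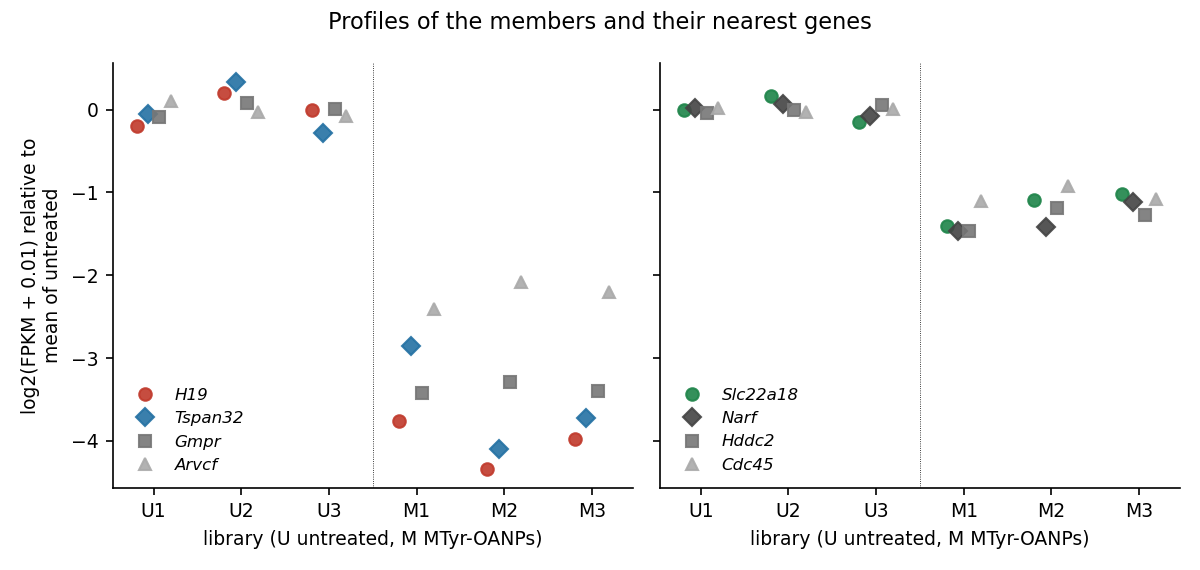
Profiles of log2(FPKM + 0.01), centred on the untreated mean of each gene, in untreated (U1 to U3) and MTyr-OANPs (M1 to M3) libraries, for H19 and Tspan32 with Gmpr and Arvcf and for Slc22a18 with Narf, Hddc2 and Cdc45. In treated library 1 Tspan32 lies above its level in the other treated libraries, while Slc22a18 lies below its own.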

How the data were processed

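The authors' deposited table gives, per the file headers, a whole-number count and an FPKM value for each gene and library. The submitters' processing notes name CASAVA 1.4 and mm9; aligner, counting tool and strand setting: not given in the sources used here. Coordinates match GENCODE M21 on GRCm38 (both ends in 86 of 99 genes, 1 end in 13; Ins2 is among the latter), so GRCm38 is used. Counts per FPKM followed the merged exonic length to within 2% in 59 of 61 genes whose mean count reached 50, the expressed members included. All 173 counts of 0 were listed as 0.0001 FPKM.

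Log2 differences are differences of mean log2 FPKM, with standard errors from the spread within groups. The background and the genes that are no members were tested with the quasi-likelihood test of edgeR 4.0.16 in R 4.3.3 (Benjamini-Hochberg adjustment, two-sided) on the counts, with library sizes from counts divided by FPKM, over 53 genes whose mean FPKM reached 1 or over all 83 genes with a count. Replicates of a group differed by more than sampling noise. Alternatives used TMM, DESeq2 1.42.0, limma 3.58.1, other minimums and pseudocounts, the replicate number, and leaving out each library. Members and lists were chosen with earlier results of these data known. Named are the members, genes of chromosome 7, up to 4 genes per list, and the 3 nearest genes of each member.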

Additional observations from a re-analysis of the deposited data

How the results depend on the processing

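All 3 expressed members kept their direction in every alternative. Their groups did not overlap, so a pseudocount or leaving out a library could not have reversed it. The replicate block gives the same mean difference by construction. Only the pseudocount moved a member by more than the spread between replicates. With log2(FPKM + 1) the difference was -1.54 for H19 and -1.0 for Tspan32, and with log2(FPKM + 0.1) it was -3.36 and -2.73, since a pseudocount shrinks low levels. Leaving out 1 library gave -4.27 to -3.96 for H19, -4.10 to -3.41 for Tspan32 and -1.25 to -1.06 for Slc22a18. Of the 53 genes, 44 passed edgeR's test, and 40 to 44 with 1 library left out. With no FPKM minimum 51 of 83 passed, with a minimum of 5 FPKM 35 of 42, under TMM 41, in DESeq2 43 and in limma 45. The replicate block gave 45. Same-numbered libraries correlated at 0.31, 0.40 and -0.0072 in their deviations from the group means. Differently numbered libraries correlated at -0.4 to 0.13. These values do not settle whether libraries were paired by number, and the number was not used as a pairing in the main test. Treated counts of H19 and Tspan32, 22 to 67, limit their precision.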

Other observations

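Of 21 factors of imprint maintenance and chromatin listed, 2 were analysed here, both of the Polycomb family of repressors. Scmh1 rose from 2.94 ± 0.305 to 3.86 ± 0.435 FPKM (SD, n = 3 each), with a log2 fold change of 0.39 (edgeR adjusted p = 9.4e-04). Scml2, below the FPKM minimum, fell from 0.863 ± 0.0317 to 0.343 ± 0.144 FPKM (SD, n = 3 each), with a log2 fold change of -1.31 when edgeR was fitted without an FPKM minimum (adjusted p = 9.9e-10). CTCF and the DNA methyltransferases were not analysed here. Lck, a T cell kinase on the leukocyte list, had 0.291 ± 0.0869 FPKM untreated and rose to 1.29 ± 0.194 FPKM (SD, n = 3 per group; adjusted p = 3.5e-13 in the same fit). The fibroblast marker Fap, the only gene of its list analysed here, did not pass in that fit (edgeR adjusted p = 0.16).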
